A study of Mus musculus with 2 samples.

Results

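Cycling cells among mouse biliary epithelial cells, the cells that line the bile ducts of the liver, were picked by their transcripts of 18 cell cycle genes. A cell was a member when its unique molecular identifiers (UMIs, 1 per captured transcript) summed to at least 3 over Mki67, Top2a, Cenpf, Cenpe, Kif11, Knl1, Tpx2, Smc2, Diaph3, Bub1, Cdk1, Ccnb1, Ccna2, Aspm, Prc1, Ect2, Anln and Rrm2, here called rule genes, and to under 5 over the endothelial genes Ptprb, Stab2, Kdr and Flt1. Cells entered with 500 or more genes, 1000 or more UMIs and no more than 15% of UMIs from mitochondrial genes. Of these 6220 cells 132 were members, 77 in the library labelled Sox9cKO and 55 in the library labelled Sox9con. The series describes the first as deficient in Sox9, a transcription factor of bile duct cells, and the second as its control. Both came from intrahepatic ducts of mouse liver as whole cells that were fixed and then given barcodes by repeated splitting and pooling, with random hexamer and oligo(dT) priming. The labels give the genotypes only by these names, and the Cre driver, the strain, and the age and number of animals are not given in the sources used here. With 1 library a genotype there was no test of the genotypes and no p-value, cells were not taken as replicates, and each 95% interval covers counting error only, not the spread between cells or animals.

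The 2713 and 3507 kept cells had medians of 5041 and 3203 UMIs, the cKO-labelled library first here and in every pair of values that follows. No cell barcode occurred in both libraries. The cells of each library lay in first-round wells of its own, 5 and 4 of them, so that well and library cannot be told apart. Sox9 itself stood at 129 CPM (95% interval 103 to 160) in the cKO-labelled members and at 166 CPM (124 to 219) in the control-labelled ones. CPM are UMIs of the gene per 1000000 UMIs of the cells summed. The intervals overlapped, so the members' Sox9 counts alone did not separate the labels. In the larger sets of depth-matched non-members described below Sox9 stood at 115 CPM (104 to 128) and 174 CPM (153 to 196), with intervals apart.

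A cell that divides copies its DNA in S phase and parts the copies in mitosis, and each step has its own transcripts. Origin licensing factors, polymerases, nucleotide enzymes and histones serve the copying, while kinesins, kinetochore proteins, cyclin B and its kinase Cdk1 serve the parting. The late set is held down in resting cells through a promoter element, the cell cycle homology region (CHR), by the DREAM repressor complex, and is switched on from the same promoters with the CCAAT-binding factor NF-Y, whereas early genes are under E2F factors. In healthy bile ducts few cells divide, and the number grows after injury.

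Most promoters of the rule genes held the letters of these late elements, and 4 stretches are shown because their genes, a mitotic kinase, a topoisomerase, a spindle motor and a cyclin, lead that programme. They are the 90 bases before the start of transcription, 5′ to 3′, from the RefSeq table of build GRCm38.p6, with matches to TTTGAA (CHR) and CCAAT in capitals on either strand, where they read TTCAAA and ATTGG.
Cdk1, chr10:69352913-69353002, minus strand: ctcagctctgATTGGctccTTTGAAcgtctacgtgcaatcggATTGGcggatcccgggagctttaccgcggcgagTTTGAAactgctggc
Top2a, chr11:99024190-99024279, minus strand: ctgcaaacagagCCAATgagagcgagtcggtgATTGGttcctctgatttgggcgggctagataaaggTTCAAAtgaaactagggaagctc
Kif11, chr19:37376292-37376381, plus strand: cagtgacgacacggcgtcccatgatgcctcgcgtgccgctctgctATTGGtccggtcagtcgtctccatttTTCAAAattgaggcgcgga
Ccnb1, chr13:100786487-100786576, minus strand: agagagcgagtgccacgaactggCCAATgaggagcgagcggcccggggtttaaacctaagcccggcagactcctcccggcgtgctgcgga
The first 3 stretches hold both elements, and that of Ccnb1 holds CCAAT only. Of the 18 rule genes, 16 had a promoter entry by symbol. Within 250 bases before to 50 after the start, 11 of the 16 held TTTGAA, against 20.2% of all 27025 genes of the table. CCAAT was in 14 of the 16, against 41.1% of all genes, and 9 held both, against 7.97%. The E2F letters TTTGGCGC or TTTCCCGC were in none of the 16 and in 1.80% of all genes. These are letter matches, and no binding was measured.

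Most members lay just inside the rule, and a few carried most of its transcripts. Exactly 3 rule UMIs were found in 32 and 24 members, 4 in 14 and 10, 5 to 9 in 22 and 8, and 10 or more in 9 and 13. The last tier was 11.7% and 23.6% of the members and held 52.2% and 73.0% of their rule UMIs. Just outside the rule, 141 and 92 cells had 2 rule UMIs. All rule UMIs came from a single gene in 13 and 11 members, and 18 and 16 members had none of the 7 defining markers Mki67, Top2a, Cenpf, Cenpe, Kif11, Knl1 and Tpx2. All cells of the top tier had at least 1 of these 7. The tiers were drawn after the data were seen.

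**Figure D1:**
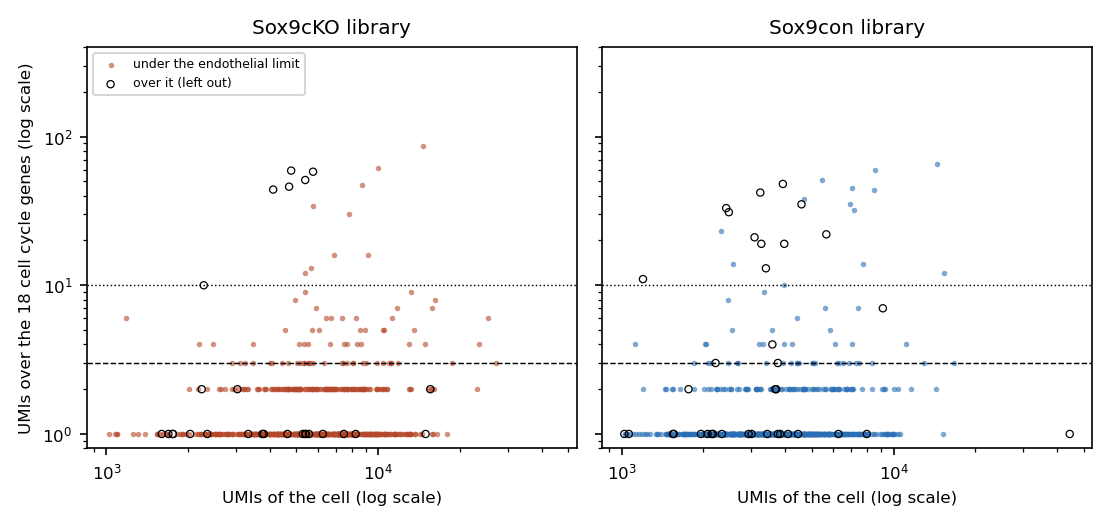
UMIs summed over the 18 rule genes (vertical, log scale) against all UMIs of the cell (horizontal, log scale) for kept cells with at least 1 rule UMI; filled points are under the endothelial limit, open circles over it, the dashed line is the rule at 3 and the dotted line stands at 10. Most members lie between the lines, and the 9 and 13 filled cells on or above 10 reach 87 and 65 rule UMIs.

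The rule genes chose the cells, so their levels describe the members and were not tested. Mki67, a coat protein of mitotic chromosomes and the usual label of proliferation, had 121 UMIs in 35 cKO-labelled and 107 UMIs in 23 control-labelled members. Top2a, which untangles DNA, had 83 UMIs in 28 members and 113 in 15. Diaph3, a formin that builds actin filaments, had 62 UMIs in 23 members and 85 in 25. In the top tier Mki67 was in all 9 cKO-labelled cells at 946 CPM over the tier and in 11 of 13 control-labelled cells at 940 CPM. Cdk1, the kinase of mitotic entry, had 3 and 7 UMIs and Ccnb1, its cyclin, 3 and 6 UMIs in the top tier, while the members with 3 to 9 rule UMIs had no Cdk1 UMI and 1 and 0 Ccnb1 UMIs. Rrm2, the S phase subunit of ribonucleotide reductase, was rare throughout, with 1 UMI and 8 UMIs over all members. Prc1, which bundles the midzone microtubules of the spindle, was less tied to the top tier, with 39 of its 58 UMIs and 15 of its 32 in members with 3 to 9 rule UMIs, and it had 33 and 15 UMIs in the non-members matched to all members below.

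The 22 top-tier cells differed among themselves. Rule UMIs ran from 12 to 87 with a median of 30 in the 9 cKO-labelled cells and from 10 to 65 with a median of 35 in the 13 control-labelled cells. The richest cell of each library had UMIs of 16 of the 18 rule genes. At the other end, 1 control-labelled cell owed all of its 23 rule UMIs to Top2a, with 2319 UMIs in all, and another reached 12 through Cenpf, Cenpe, Ccnb1 and Rrm2 in a cell of 15356 UMIs. The cells came from all 5 and all 4 wells, with 4 of the 9 in well A12 and 5 of the 13 in well D9.

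**Figure D2:**
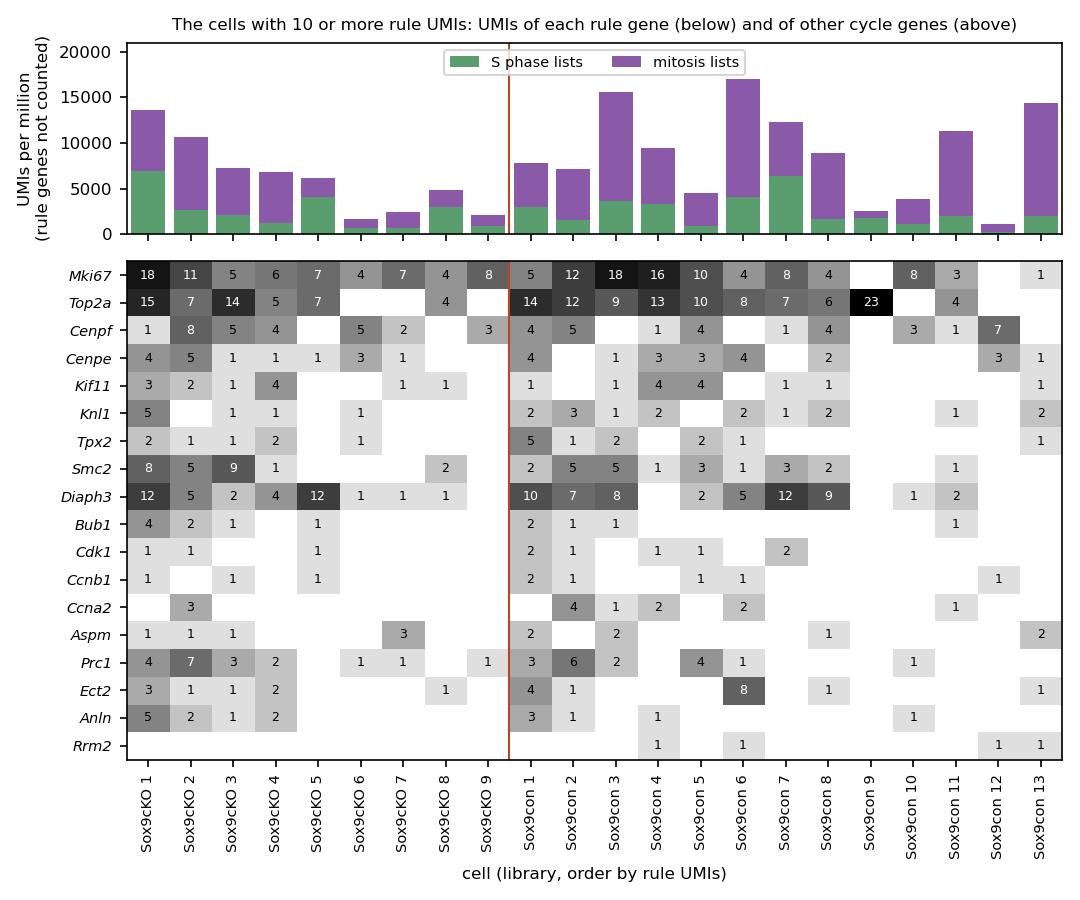
The 22 cells with 10 or more rule UMIs, ordered within library by rule UMIs (cKO-labelled left of the line): below, UMIs of each rule gene (grey shade is log2 of UMIs plus 1, number is UMIs, blank is 0); above, CPM of the cell over the S phase and mitosis lists, which leave out the rule genes. Cell 1 of each library has 16 of the 18 genes, control-labelled cell 9 has Top2a alone, and the bars run from 1107 to 17054 CPM.

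What the rule did not use could be compared. Members were set beside non-members of the same library with under 3 rule UMIs and the same endothelial limit, 5 for each member, nearest in total UMIs. The 385 and 275 comparators had medians of 7362 and 4692 UMIs and the members 7356 and 4691. Cell cycle genes outside the rule were taken as 6 lists for licensing and forks, nucleotide supply and chromatin copying, replication-dependent histones (together the S phase lists), kinetochores, spindle motors, and mitotic kinases and cyclins (together the mitosis lists), with 223 of 225 genes in the table. Summed over these lists, members stood at 2513 and 3916 CPM and comparators at 1645 and 1687 CPM. The log2 ratio was 0.61 (0.53 to 0.69) in the cKO-labelled library and 1.21 (1.11 to 1.31) in the control-labelled one.

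That difference sat mainly in the top tier. Against comparators of their own depth, cells with 10 or more rule UMIs had 7112 and 7728 CPM of the 6 lists where comparators had 1574 and 1612 CPM, a ratio of 4.51 and 4.79. Cell by cell the level ran from 1635 over a median of 6137 to 13614 CPM in the 9 cKO-labelled cells, all above their comparators' median of 1418 CPM. It ran from 1107 over 8924 to 17054 CPM in the 13 control-labelled cells, 12 of them above their comparators' median of 1465 CPM. The ratio was 1.36 and 1.51 in cells with 5 to 9 rule UMIs, 0.985 and 1.34 with 4, and 1.11 and 1.18 with 3. In cKO-labelled cells with 3 or with 4 rule UMIs the interval of the log2 ratio included 0 (-0.00 to 0.30 and -0.26 to 0.21), so no excess was detectable there at this depth. Cells with exactly 2 rule UMIs, outside the rule, had 1751 and 1719 CPM of these genes, and those with 3 had 1835 and 1986 CPM.

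**Figure D3:**
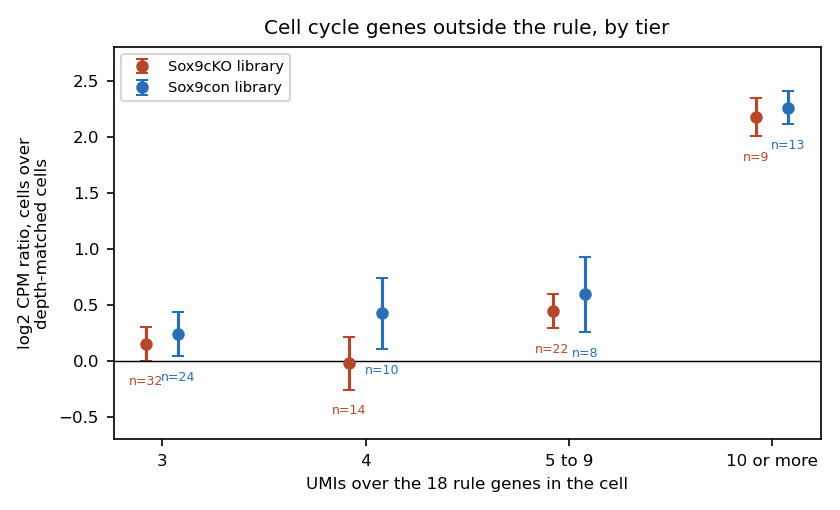
Log2 ratio of the CPM of the 6 cell cycle lists outside the rule, cells of a tier over comparators of equal depth (vertical), by rule UMIs of the cell (horizontal); bars are exact 95% conditional binomial intervals and n is the number of cells. The tiers from 3 to 9 lie between -0.02 and 0.60, and both libraries' cells with 10 or more lie above 2.

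Copying genes and parting genes were both high in the top tier. The S phase lists were at a log2 ratio of 2.28 (2.01 to 2.56) and 1.55 (1.30 to 1.81), and the mitosis lists at 2.10 (1.88 to 2.33) and 2.69 (2.50 to 2.88). Of the UMIs that a cell spent on these lists, the S phase share ran from 17.9% to 66.7% in the cKO-labelled and from 14.04% to 66.7% in the control-labelled cells. Replication-dependent histones, the proteins that package new DNA, had 32 UMIs in each library's top tier against 7 and 19 in the comparators, a log2 ratio of 4.36 (3.31 to 5.94) and 2.97 (2.16 to 3.93). The histone UMIs were uneven: 19 and 10 were in 2 cKO-labelled cells, 5 of the 9 had none, and 7 of the 13 control-labelled cells had none. Linker histone H1f4 had 11 UMIs in 4 cells and 14 in 5 cells of the top tier and none in members with 3 to 9 rule UMIs.

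Spindle genes had the most members above counting error. The rule that chose these cells itself holds spindle genes, such as Kif11 and Prc1, and the part of that choice in the order of the lists was not tested. The interval of the log2 ratio lay above 0 in both libraries for 117 of the 11890 genes with a UMI in both, or 0.984%, and for 19 of the 41 spindle genes listed, of which 33 had a UMI. Genes without a UMI in comparators could only come out higher, and some of the 33 had none. Kif23, a kinesin of the central spindle, had 23 and 21 UMIs in 7 and 9 cells, at 311 and 222 CPM against 64.8 and 41.5 CPM. Nusap1, which bundles spindle microtubules, had 6 and 21 UMIs in 4 and 9 cells against 0 and 1 UMI in all 45 and 65 comparators. Kif4, a chromosome-bound kinesin, had 11 and 5 UMIs against 0 and 1, and Cep55, which acts in the final cut between daughter cells, 7 and 6 against 0 in both. The comparators held 1 UMI or none of Nusap1, Kif4 and Cep55 in each library, and held Kif23 in 16 and 15 cells.

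The other lists had fewer genes above counting error. Among kinetochore genes 3 of 40 listed had intervals above 0 in both libraries (Ndc80, Cenpk and Cenpp), among mitotic kinases and cyclins 4 of 29 (Cdc20, Ube2c, Melk and Pbk), and among licensing and fork genes 4 of 41. Those 4 were Mcm3, a subunit of the replicative helicase, Pola1 and Prim2 of the primase complex, and Dtl, which marks licensing factors for destruction. Pola1 had 11 UMIs in each library, at 149 and 116 CPM against 29.7 and 37.1 CPM. Homologous repair and Fanconi genes, which mend broken and stalled forks, stood at 1.64 (1.26 to 2.02) and 1.41 (1.06 to 1.75), with 6 of 31 above counting error, Brca1, Brca2, Brip1, Rad51b, Fanci and Blm. Centriole duplication genes stood at 2.10 (1.54 to 2.68) and 1.99 (1.45 to 2.55), with Cep152, Cep192 and Cep128 above it. Condensin and cohesin were higher by less, at 0.46 (0.25 to 0.67) and 0.80 (0.61 to 0.99), the cKO-labelled value being -0.02 without well A12. Smc4, the condensin ATPase that pairs with the rule gene Smc2, led all genes by the naming rule in this tier with 24 and 57 UMIs, at 325 and 602 CPM against 43.2 and 28.4 CPM.

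Entry control and arrest genes differed little. The list of G1 cyclins and kinases had log2 ratios of 0.12 (-0.09 to 0.32) and 0.03 (-0.11 to 0.17) in the top tier, and of -0.10 and -0.19 under TMM, a scaling that trims the genes furthest apart. Ccnd1, the cyclin that growth signals induce, had 28 and 49 UMIs at 379 and 517 CPM, against 286 and 565 CPM, while Ccnd2, its relative, had 2 and 6 UMIs at 27.0 and 63.3 CPM against 197 and 188 CPM. The log2 ratio of Ccnd2 was -2.77 (-5.94 to -0.96) and -1.54 (-3.05 to -0.39). CDK inhibitors and p53 targets stood at 0.11 (-0.21 to 0.41) and 0.25 (-0.02 to 0.51), and Cdkn1a, the p53-induced inhibitor, was found in all 9 and in 9 of 13 cells. The transcription regulators stood at 0.21 (-0.21 to 0.61) and 0.48 (0.13 to 0.82), with E2f3, an activating E2F, and Rbl1, the pocket protein p107 of the DREAM complex, above counting error. Foxm1 and Mybl2, activators of the late genes, had 2 and 1 UMIs and 1 and 1 UMI in the top tier, too few to compare.

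The members with 3 to 9 rule UMIs, 68 and 42 cells, showed a small excess of copying genes. Their S phase lists stood at a log2 ratio of 0.42 (0.28 to 0.56) and 0.49 (0.27 to 0.71), with licensing and fork genes at 0.46 (0.27 to 0.64) and 0.58 (0.28 to 0.86). Spindle genes were at -0.06 (-0.25 to 0.13) and 0.03 (-0.26 to 0.31), with intervals that spanned 0. The mitosis lists were at 0.03 (-0.11 to 0.16) and 0.23 (0.03 to 0.44). Hepatocyte and leukocyte lists, given below, were higher in these cells by similar amounts or more.

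**Figure D4:**
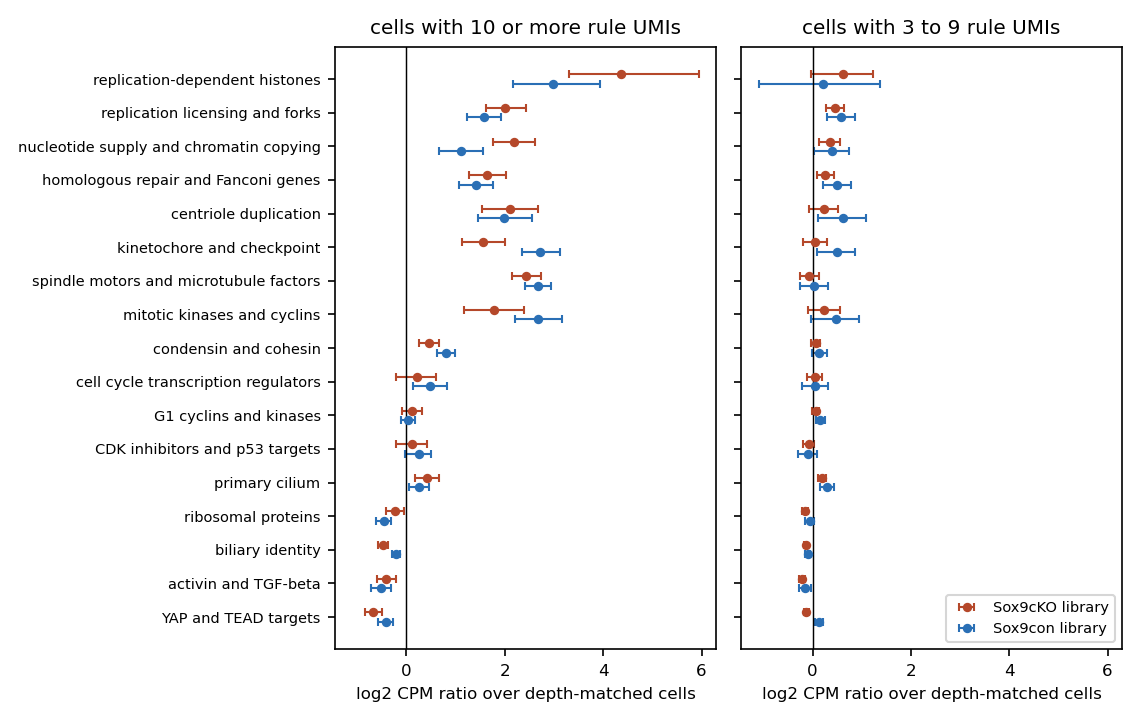
Log2 ratio of the summed CPM of each gene list, cells over comparators of equal depth (horizontal), for cells with 10 or more rule UMIs (left) and with 3 to 9 (right); points are the libraries and bars exact 95% conditional binomial intervals. The copying, repair, centriole and mitosis lists stand between 1.12 and 4.36 on the left and between -0.06 and 0.62 on the right.

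The top-tier cells kept their epithelial transcripts. Epcam, an adhesion molecule of epithelia, and keratin Krt18 were detected in all 22 cells. Biliary identity genes, such as Krt8 and Spp1 (osteopontin), had log2 ratios of -0.48 (-0.58 to -0.37) and -0.21 (-0.29 to -0.14) in sum, and 8 of the 9 and 10 of the 13 cells were below their comparators' median. YAP and TEAD targets, which respond to tension and cell shape, stood at -0.67 (-0.85 to -0.50) and -0.42 (-0.58 to -0.27), with Ankrd1 at 162 and 464 CPM against 1029 and 890 CPM. The activin and TGF-beta list, which holds ligands, receptors and Smads along with antagonists such as Fst, stood at -0.41 (-0.60 to -0.22) and -0.52 (-0.71 to -0.32). Ribosomal protein genes stood at -0.23 (-0.41 to -0.06) and -0.47 (-0.61 to -0.32). These are shares of each cell's UMIs, so that a larger share of one group lowers the others. How much of these lower values that makes up was not tested. TMM shifted the log2 ratio of every gene in this tier by a further -0.22 in each library. Primary cilium genes were a little higher, at 0.42 (0.17 to 0.66) and 0.26 (0.05 to 0.47). Under TMM these were 0.20 (-0.05 to 0.44) and 0.04 (-0.17 to 0.25). A cell resorbs this organelle before it divides.

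Markers of endothelial cells and leukocytes were sparse in the top tier, and hepatocyte and mesenchymal lists were present in most or some cells. Of 17 endothelial genes 3 and 4 had a UMI, 3 and 11 UMIs in all, with Cdh5, Stab1, Lyve1 and Clec4g at 0 in both libraries, and the level per cell ran from 0 to 230 CPM and from 0 to 639 CPM. Of 24 leukocyte genes 2 and 6 had a UMI, with Ptprc, Adgre1 and Cd3e at 0, and 0 to 435 and 0 to 551 CPM per cell. Of 17 mesenchymal genes 3 and 4 had a UMI, with Col1a1, Dcn and Pdgfrb at 0, in 9 of 9 and 6 of 13 cells, and 100 to 821 and 0 to 1558 CPM per cell. Of 26 hepatocyte genes 8 had a UMI in each library, in 7 of 9 and 12 of 13 cells, at 1366 and 1045 CPM over the tier and 0 to 4853 and 0 to 3035 CPM per cell, with 18 of the 26 at 0 in each library. The hepatocyte list had a log2 ratio of 0.02 (-0.30 to 0.33) in the cKO-labelled and 0.87 (0.53 to 1.22) in the control-labelled top tier. Over all members the hepatocyte list was at 2262 and 953 CPM against 1722 and 631 CPM in comparators, and its part in the results was not tested. In members with 3 to 9 rule UMIs the leukocyte list stood at 0.37 (0.07 to 0.66) and 0.99 (0.39 to 1.58). The hepatocyte list stood at 0.45 (0.36 to 0.54) and 0.50 (0.26 to 0.73) there. These values are of the size of the S phase lists there or above, and the part of either list was not tested. Endothelial genes outside the rule went opposite ways in that tier, at 0.78 (0.33 to 1.22) and -0.98 (-2.10 to -0.06).

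Gene by gene, calls were few. A gene was called when its CPM was at least 2-fold apart from comparators in the same direction in both libraries, among genes with at least 20 UMIs in each. Over all members 49 of 8312 genes (0.59%) were called higher and 53 (0.638%) lower, and in the top tier 42 of 3855 (1.09%) higher and 100 (2.59%) lower. Scaled by TMM in place of total UMIs, every log2 ratio of the top tier dropped by 0.22, and the counts were 28 higher and 68 lower over all members and 24 and 150 in the top tier, and with DESeq2 size factors they were 34 and 59 over all members. Without well D9 the calls over all members were 22 and 21, and without well A12 those of the top tier were 11 and 58. In members with 3 to 9 rule UMIs 17 of 7280 (0.234%) were called higher, Lig1 and Smc4 among them, and 43 (0.591%) lower. Of the 225 cell cycle genes of the 6 lists 39 could be called over all members, of which 5 were called higher and 0 lower, with medians of 0.36 and 0.81 against -0.00 and -0.02 over all genes. Of 21 lists with at least 5 such genes, 13 had a median above that of all genes in both libraries. With the repair, condensin, centriole and regulator lists 84 genes could be called, and 10 of them (11.9%) were called higher, Atad2, Brip1, Cenpp, Cep128, H1f4, Lig1, Ncapg2, Rbl1, Rrm1 and Smc4. H1f4, Cenpp and Rbl1, with 9 and 6, 17 and 7, and 16 and 12 UMIs in comparators, reached the minimum of 20 UMIs only with their members' UMIs. So did Atad2 in the control-labelled library, with 16 in comparators. Genes sparse in comparators could enter only when high in members. The effect of this on the 11.9%, and on the 42 higher calls of the top tier, was not tested. Smc4 was called higher in both sets, and was the only one of the 49 with enough UMIs to be called in the top tier. All 42 genes called higher in the top tier had enough UMIs over all members, and of these only Smc4 was called higher there.

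The 15 highest genes of the top tier had varied roles. Hmgb2, a chromatin protein abundant in dividing cells, had 13 and 27 UMIs in 5 and 10 cells, at 176 and 285 CPM against 21.6 and 56.7 CPM. Rad51b, a recombination factor, was at 189 and 201 CPM against 40.5 and 8.73 CPM, and Rad18, which guides the bypass of damaged DNA, had 11 and 15 UMIs against 13 and 11 in the comparators, which were 5 times as many cells. Nucks1, a chromatin protein of recombination, had 29 and 40 UMIs, at 392 and 422 CPM against 135 and 120 CPM, in 7 and 12 cells. Arl6ip1, a membrane-shaping protein of the endoplasmic reticulum, was at 189 and 718 CPM against 70.2 and 124 CPM, in 3 of 9 and all 13 cells. Cxcl10, an interferon-induced chemokine, was at 162 and 211 CPM against 24.3 and 48.0 CPM. E2f3, Kif23, Pola1, Smc4, Ccdc34, Ptms, Vldlr, Mlec and Emp1 completed the 15 highest, with log2 ratios from 1.36 to 4.32. Emp1 was in 5 of 9 and 4 of 13 cells (55.6% and 30.8%) against 17.8% and 29.2% of comparators. In each library 1 cell held 7 of its 13 and 10 of its 23 UMIs. The 10 lowest rested on 0 to 2 UMIs in the top tier, such as Rnf146, with 0 against 22 and 28 UMIs and Pdzrn3 with 1 and 0 against 46 and 43.

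Over all members the names were of another kind in part. Dnah12, an axonemal dynein, headed the list with 22 and 24 UMIs in 8 and 7 members, at 34.2 and 78.3 CPM against 3.94 and 6.08 CPM. Mmp25, a membrane metalloproteinase, and Scin, an actin-severing protein, were listed with it as 1 expression state of duct cells. At least 2 UMIs of the 3 genes were found in 8 of 77 and 7 of 55 members (10.4% and 12.7%) against 11 of 385 and 9 of 275 comparators (2.86% and 3.27%). Of the top tier 0 of 9 and 4 of 13 cells were among them. Atad2, a chromatin factor of S phase, had 34 and 14 UMIs in 15 and 9 members, at 52.9 and 45.7 CPM against 10.2 and 10.8 CPM. Fign, Grik4, Rbl1, Hmgn2, Cenpp, Gna14, Igsf8, Cep128, 3830406C13Rik and Polg2 were also among the 15 highest, with H1f4, Mmp25 and Smc4. Of the 15 only Mmp25, Smc4 and Cep128 had 20 or more UMIs in comparators of both libraries. The rest, such as Dnah12, Fign and Grik4 with 12 and 9, 11 and 9, and 11 and 11, had fewer in at least 1 library. There these too reached the minimum only with their members' UMIs. Among the 10 lowest, Rgs13, a signalling regulator of tuft cells, had 67 and 39 UMIs, all in 5 comparators of each library (1.30% and 1.82%). It had none in members, where the intervals reached 4.68% and 6.49% of cells and so include the comparators' shares. Pdx1, a duct and pancreas transcription factor, was spread more widely, in 43 of 385 and 21 of 275 comparators against 2 of 77 and 1 of 55 members. Fyb, Mctp1, Pik3r5, St18, Atp2a3, Nhsl2, Ptgs2 and Dgki made up the rest of the lowest. The 5 richest comparators of each library held 199 of 203 and 61 of 61 Fyb UMIs. By cells, Fyb was in 2 of 77 and 1 of 55 members and in 8 of 385 and 5 of 275 comparators. Such 5 cells also held most UMIs of Mctp1, Pik3r5, St18, Atp2a3 and Dgki in both libraries, of Ptgs2 only in the control-labelled one, and of Nhsl2 in neither.

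The share of members climbed with the UMIs of the cell. It was 77 of 2713 cells or 2.84% (exact Clopper-Pearson interval 2.25 to 3.53) in the cKO-labelled library and 55 of 3507 or 1.57% (1.18 to 2.04) in the control-labelled one, a ratio of 1.81. Within a library it ran from 0.592% and 0.325% at 1000 to 2000 UMIs to 8.31% and 7.92% at 8000 or more. Over the 5 depth bins together the Mantel-Haenszel ratio was 0.945. When each cell was thinned to 2000 UMIs, 17 of 2482 cells (0.685%, 0.399 to 1.09) and 26 of 2815 (0.924%, 0.604 to 1.35) met the rule, a ratio of 0.742 with overlapping intervals, and 143 and 572 shallower cells were left out. The same cells unthinned gave 3.06% and 1.88%. No difference in the share of members was detectable with cells thinned to equal UMIs, and depth, well and genotype label cannot be told apart in the raw shares.

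**Figure D5:**
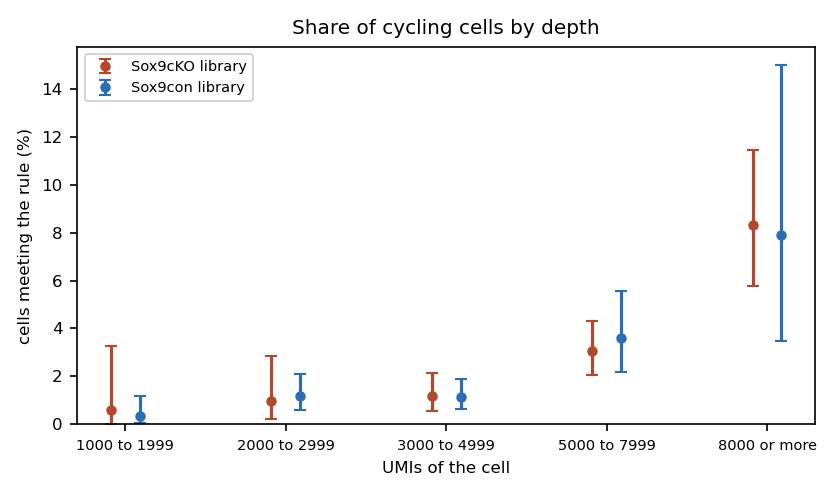
Share of kept cells that met the rule (vertical, percent) by UMIs of the cell (horizontal), with exact 95% Clopper-Pearson intervals. The libraries' intervals overlap in every bin, and both shares are highest, at 8.31% and 7.92%, in cells with 8000 or more UMIs.

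The top tier was 9 of 2713 cells, 0.332% (0.152 to 0.629), and 13 of 3507, 0.371% (0.198 to 0.633), a ratio of 0.895, and 0.331 over the depth bins. After thinning, 3 of 2482 cells (0.121%, 0.0249 to 0.353) and 7 of 2815 (0.249%, 0.100 to 0.512) still had 10 rule UMIs, again with overlapping intervals. Wells of 1 library differed too. The members' share ran from 1.76% in well A11, with a median of 3491.5 UMIs, to 4.62% in well A12, with 6431, and from 0.837% in well D11 to 1.97% in well D9. The part of depth in the difference between wells was not tested.

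Between the libraries, the 6 cell cycle lists of the top tier summed to 7112 and 7728 CPM, a log2 ratio of -0.12 (-0.28 to 0.04), while single lists lay apart in both directions. Nucleotide supply and chromatin copying was at 1230 and 665 CPM, kinetochore and checkpoint genes at 946 and 1446 CPM, and mitotic kinases and cyclins at 541 and 940 CPM. By the median cell the first list went the other way, at 436 and 649 CPM, while the other 2 kept their direction, at 710 and 1555 and at 373 and 1115 CPM. The S phase lists stood further above comparators in the cKO-labelled cells and the mitosis lists in the control-labelled ones, as given above, and these differences between libraries were not tested. However, 1 cKO-labelled cell held 101 of the 217 S phase UMIs of its tier. The median cell was at 2069 and 1944 CPM for the S phase lists and at 2046 and 5952 CPM for the mitosis lists. Over all members the 6 lists had a log2 ratio of -0.64 (-0.75 to -0.53), and the top tier was 11.7% of the cKO-labelled and 23.6% of the control-labelled members. Of 3684 genes with at least 50 UMIs over the members of both libraries, 171 (4.64%) had 2 times or more the CPM in the cKO-labelled members and 121 (3.28%) 0.5 times or less. With TMM these were 216 and 84, with DESeq2 size factors 207 and 93, and without well A12 98 and 79. Of the 288 with a symbol, 263 lay in the same direction in the comparators and 92 were also 2-fold apart there. Vtn, a plasma adhesion protein, had 198 UMIs in 32 cKO-labelled members and 0 in control-labelled ones, and 763 and 18 UMIs in comparators. Fst, the activin antagonist follistatin, had 67 and 0 UMIs, and 261 and 5 in comparators. Serpina1b and Hp, plasma proteins of hepatocytes, had 72 and 109 UMIs in cKO-labelled members and 0 and 1 in control-labelled ones, and 198 and 360 against 0 and 2 in comparators. On the other side Rhoj, a small GTPase, was at 20.2 and 144 CPM in members and 14.1 and 164 CPM in comparators. Serpinb1a, Sdk1, Tuba1b and Gsto1 were the other 4 lowest, and for Sdk1, an adhesion molecule, the comparators went the opposite way, at 18.1 and 4.05 CPM against 24.9 and 163 CPM in members, with 17 of its 50 control-labelled UMIs in 1 cell. Muc6, a gel-forming mucin, had 152 and 0 UMIs, all of them in 1 cKO-labelled cell, and 1 and 112 UMIs in comparators. Well, depth and genotype label cannot be told apart in these differences.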

How the data were processed

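Transcripts were counted in fixed mouse biliary epithelial cells in 2 libraries with the Evercode Whole Transcriptome kit, per the labels' protocols. Per the file headers, the authors deposited raw whole-number UMI counts per cell and gene. The submitters' processing notes name genome build GRCm39, and the aligner, the handling of multiply matching reads and the cell calling are not given in the sources used here, so near-identical histone and Serpina1 copies are uncertain. The libraries hold 14856321 and 12811243 UMIs. Counts of cells were summed per library and turned into CPM, and ratios used 0.5 added counts with exact 95% conditional binomial intervals. Being chosen by UMIs, members are deeper than other cells, so each was matched to 5 comparators. The members, the gene lists and the naming rule (the 15 highest and 10 lowest genes by the ratio nearer 0 of both libraries, and 5 each way between libraries) were chosen with earlier results of these data known. The tiers of rule UMIs were added after the data were seen, and the naming rule was applied to the top tier then. Scrublet in scanpy 1.11.5 marked 3 of 6362 cells (0.0472%), too few to have worked, and no doublet was removed. Alternatives used TMM (edgeR 4.0.16) and DESeq2 1.42.0 size factors, other thresholds, comparators and filters, and left out wells. The ratio code was tested on simulated counts. Promoters are of GRCm38.p6, another build than that of the counts, and were matched by symbol.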

Additional observations from a re-analysis of the deposited data

Results flagged for a closer look

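Some lists stood apart from comparators in opposite directions in the libraries, with both intervals off 0, and in each case the difference between libraries was not tested. Muc6 and Bcl11a, listed as a gland-like state, had a log2 ratio of 3.98 in members labelled cKO and of -2.71 in members labelled control, and 1 cKO-labelled cell held 153 of the 159 UMIs of the first value. Immediate early and dissociation genes had log2 ratios of -0.47 and 0.65 in cells with 10 or more rule UMIs, and the first was 0.029 against comparators of the same well. Ly6a, Cd14 and Cxcl5 stood at 0.78 and -1.85 in those cells, and the first was -0.20 without well A11. Cells over the endothelial limit, which the rule leaves out, were also looked at: 6 of 88 (6.82%, 2.54 to 14.3) and 15 of 120 (12.5%, 7.17 to 19.8) had 3 or more rule UMIs, beside 2.84% and 1.57% of all kept cells that were members. At 3 or more rule UMIs the cKO-labelled interval includes 2.84%, and these cells were not matched for UMIs. The contrast was wider at 10 or more rule UMIs. There 6 of 88 and 11 of 120 cells over the limit qualified, beside 0.332% (0.152 to 0.629) and 0.371% (0.198 to 0.633) of all kept cells in the top tier. Each of these cells over the limit had fewer UMIs than the median top-tier cell of its library. The cause of this difference was not tested.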

How the results depend on the processing

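No paired analysis was possible because each genotype has 1 library. The cause of each difference below was not tested. For the 6 cell cycle lists the log2 ratio over all members, 0.61 and 1.21, became 1.11 and 1.93 with at least 5 rule UMIs, 0.51 and 1.05 with TMM, 0.71 and 1.33 with at least 2 rule genes a cell, and 0.74 in the cKO-labelled library without the top 5% of Scrublet scores, and it ran from 0.45 to 0.72 and from 1.09 to 1.34 without 1 well. In the top tier 2.17 and 2.26 became 1.96 and 2.04 with TMM, 2.35 and 2.45 without the top 5% of Scrublet scores, and 2.09 in the control-labelled library with 1 comparator, and ran from 1.97 to 2.39 and from 2.13 to 2.67 without 1 well. The share of members was 1.14% and 0.599% at 5 UMIs, 8.04% and 4.19% at 2, and 0.685% and 0.924% thinned to 2000 UMIs, where the log2 ratio of the libraries turned from 0.86 to -0.43. Without 1 well the shares ran from 2.35% to 3.12% and from 1.44% to 1.80%, with log2 ratios of 0.58 to 0.99. The top-tier shares ran from 0.235% to 0.373% and from 0.303% to 0.428%, with log2 ratios of -0.66 to 0.13.

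Counts of called genes moved most. Over all members the 49 higher became 24 with 1 comparator, 28 with TMM, 128 and 5 with gene minimums of 10 and 50 UMIs, and 22 to 53 without 1 well. The 53 lower became 8, 125 and 10 under the same comparator and minimums, 22 by cells with a UMI, and 21 to 75 without 1 well. In the top tier the 42 higher became 12, 24, 112 and 5 in the order of the 49, 15 by cells with a UMI and 11 to 43 without 1 well. The 100 lower became 17, 221, 21, 35 and 58 to 103. Lists with a median above all genes, 13, became 8 at 5 rule UMIs, 7 with 1 comparator, 7 at a minimum of 50, 8 with 2 rule genes and 8 to 12 without 1 well. Between libraries the 171 and 121 genes became 93 and 66 at 5 rule UMIs, 449 and 394 at a minimum of 20, 68 and 35 at 100, and 98 to 234 and 79 to 163 without 1 well.

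Some single values changed sign. G1 cyclins over control-labelled members were -0.21 at 5 rule UMIs, -0.019 with 1 comparator and -0.049 with TMM, and ran from -0.31 without well D9 to 0.21 without well D10. At 5 rule UMIs cKO-labelled Muc6 and Bcl11a were at -1.38 and Mmp25 at -3.04. With 1 comparator cKO-labelled Fyb, Mctp1, St18 and Atp2a3 were at 0.73 and Dgki at 0.38, and by cells with a UMI Fyb was at 0.29, Dgki at 1.06, control-labelled Mctp1 at 0.61 and top-tier cKO-labelled Arl6ip1 at -0.088. In the top tier, cKO-labelled immediate early genes were at 0.55 with 1 comparator, 0.029 with comparators of the same well and -0.58 to 0.37 without 1 well, the last without A12. Condensin and cohesin ran from -0.019 without well A12 to 0.63, Ly6a and Cd14 from -0.20 without well A11 to 1.41, and control-labelled Muc6 and Bcl11a were at 1.58 with 1 comparator.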

Other observations

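Some signalling and metabolic lists of the top-tier cells are not described above, and their differences between libraries were not tested. Notch genes, which guide duct cell fate, stood at a log2 ratio of -0.03 (-0.56 to 0.46) in the cKO-labelled and 0.73 (0.30 to 1.16) in the control-labelled cells with 10 or more rule UMIs, and growth factor receptors and ligands at -0.20 (-0.36 to -0.03) and -0.02 (-0.15 to 0.11). Oxidative phosphorylation genes stood at -0.00 (-0.33 to 0.31) and -0.36 (-0.61 to -0.12), and glycolysis genes at 0.30 (-0.19 to 0.77) and 0.38 (-0.03 to 0.77). The gene table also holds an EGFP sequence, with 16 and 7 UMIs in the libraries and 1 and 0 in members. Sox9 in the top tier had 7 UMIs in 2 of 9 cells and 21 UMIs in 7 of 13 cells, at 94.6 CPM (38.1 to 195) and 222 CPM (137 to 339), with overlapping intervals.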
